A study of Mus musculus with 2 samples.

Results

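Described here are 10 genes whose products make, lengthen and desaturate fatty acids, with their RNA read as long reads from mouse adrenal glands. The series holds 1 group of 2 libraries, so no condition could be compared. The genes are Acly, Me1, Acaca, Fasn, Elovl5, Elovl6, Scd1, Scd2, Fads1 and Fads2. They were chosen by name and by detection: each had reads in the transcript table of both libraries, and the proposal to describe them was made with read counts of these data known. Detection and the presence of both long coding transcripts of Acly are therefore descriptions and carry no test. The 10 genes are among 12578 annotated genes with reads in both libraries and 16400 with reads in either. Their reads fell on 240 transcript models in replicate 1 and 276 in replicate 2.

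The source of both libraries was adrenal total RNA from females of B6CASTF1/J at 25 days of age, the F1 cross of C57BL/6J with CAST/EiJ, with no treatment or genetic change in the labels. They are labelled as biological replicates 1 and 2. The tissue labels name animals 3 and 4, whereas both library labels name animal 3 and both records share 1 donor entry. Whether the libraries come from separate animals is thus not settled, and p-values measure only the difference between these 2 libraries. Replicate 1 held 426150 reads and replicate 2 held 770041. Of these, 397176 in replicate 1 and 712032 in replicate 2 were assigned to annotated mouse genes, and levels below are counts per 1000000 of those reads (CPM). The tissue label was checked against marker genes: Cyp11a1, the enzyme of the first step of steroid synthesis, averaged 26090.8 ± 2754 CPM (SD, n = 2), and Th, which starts catecholamine synthesis in the medulla, averaged 1907 ± 301.4 CPM (SD, n = 2). Cortex and medulla were read together, so fewer cells of a type and less RNA per cell cannot be told apart.

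As background, acetyl-CoA for fatty acid synthesis leaves the mitochondrion as citrate and is released in the cytosol by ATP citrate lyase. Acetyl-CoA carboxylase turns it into malonyl-CoA, and fatty acid synthase builds palmitate from these units with NADPH, part of which malic enzyme supplies. Elongases and desaturases of the endoplasmic reticulum then lengthen the chain and add double bonds, and the FADS enzymes with ELOVL5 make arachidonic acid and other long polyunsaturated acids from dietary ones. In the adrenal cortex, such acyl chains are found in the cholesterol esters that store the substrate of steroid synthesis.

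The 10 genes together held 4503 reads in replicate 1, or 1.134% of annotated-gene reads (95% Wilson interval 1.101 to 1.167), and 6094 reads in replicate 2, or 0.8559% (0.8347 to 0.8775). Fads2, Acly and Me1 held 77.46% of those reads in replicate 1 and 80.54% in replicate 2. Intervals cover counting error only, and reads without molecular identifiers are not independent molecules.

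Of the genes that supply the precursors, Acly, which encodes ATP citrate lyase (mm10 chr11:100476353-100528000, minus strand), had 1110 reads in replicate 1 and 1738 in replicate 2. That is 2795 and 2441 CPM in replicates 1 and 2, a mean of 2618 ± 250.2 CPM (SD, n = 2), rank 20 among all genes. Me1, the cytosolic malic enzyme (chr9:86581371-86695953, minus strand), had 764 reads in replicate 1 and 1044 in replicate 2. Its level was 1924 CPM in replicate 1 and 1466 CPM in replicate 2 (mean 1695 ± 323.4, SD, n = 2; rank 36). Both genes were therefore among the 40 most read genes of the gland in these libraries.

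Acly was the member with 2 well-read coding transcripts, which differ by 1 exon. Acly-203 holds an extra exon of 30 bases, exon 14 of 29, at mm10 chr11:100503160-100503189 on the minus strand, and Acly-201 joins its neighbours directly. The exon lies inside the coding sequence and adds 10 codons, so that the coding length is 3303 bases with it and 3273 bases without it. It starts after 1429 coding bases, within codon 477, and keeps the reading frame. The stretch is shown because it is the only difference between the coding sequences of both transcripts. Capitals mark the alternative exon and lower case its 30 exonic neighbours on either side, from the GENCODE M21 transcripts.
Acly-203: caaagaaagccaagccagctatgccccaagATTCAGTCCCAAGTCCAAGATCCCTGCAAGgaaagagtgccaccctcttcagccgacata
Acly-201: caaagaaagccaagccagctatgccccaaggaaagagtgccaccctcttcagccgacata

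The form without the exon held most Acly reads in both libraries. Among reads of annotated transcripts that decide the exon, 204 had it and 721 lacked it in replicate 1, a share with the exon of 22.05% (95% Wilson interval 19.50 to 24.84). In replicate 2, 372 had it and 1055 lacked it, or 26.07% (23.86 to 28.41). The mean share was 24.06% ± 2.839 (SD, n = 2), and Fisher's exact test of this share between the libraries, unadjusted, gave p = 0.02728. Counting every model with a junction that decides the exon, incomplete ones included, 231 reads with it and 791 without it gave 22.60% in replicate 1, and 419 with it and 1156 without it gave 26.60% in replicate 2 (unadjusted p = 0.02307, Fisher's exact test). The flanking introns are 1013 bases on the upstream side and 4397 bases on the downstream side, and the intron that skips the exon is 5440 bases long.

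**Figure D1:**
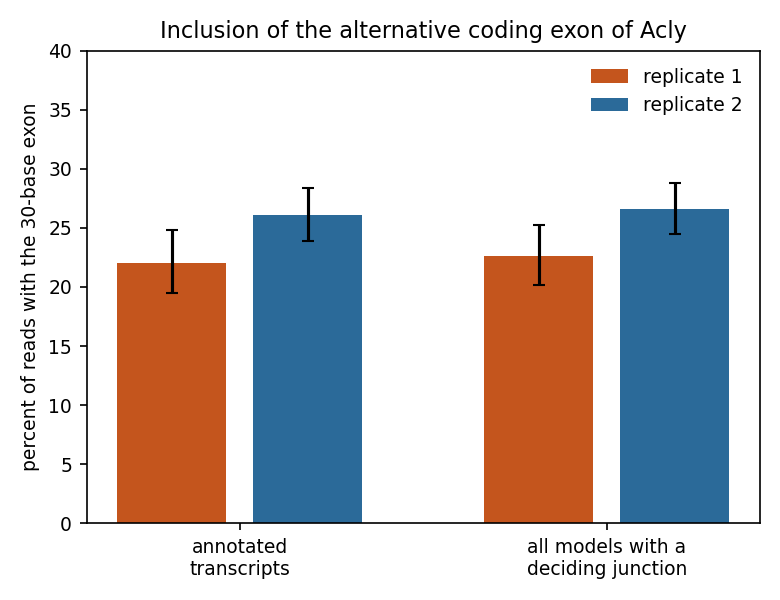
Share of Acly reads, in percent, that hold the 30-base coding exon, in replicate 1 and replicate 2, from annotated transcripts and from all models with a deciding junction; bars are shares and error bars 95% Wilson intervals. All 4 shares lie between 22.05% and 26.60%, and replicate 1 is the lower library under both ways of counting.

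A further Acly transcript, Acly-207, had 20 reads in replicate 1 and 38 in replicate 2. It has the introns of Acly-201 except the first, and the same coding length of 3273 bases. The use of Acly-201 among all annotated Acly transcripts was 75.70% in replicate 1 and 71.12% in replicate 2, and Fisher's exact test with Benjamini-Hochberg adjustment over all genes gave an adjusted p of 1.0. Of 1866 genes with more than 1 transcript read, and 20 or more such reads per library, 3 passed this test (0.161%). None of the 4 members that could be tested, Acly, Fasn, Fads1 and Fads2, was among them, at unadjusted p of 0.015, 0.64, 0.43 and 1.0. A second annotated transcript with at least 20% of the reads, as Acly has, was seen in 318 of the 3057 genes (10.40%) whose annotated transcripts had 20 or more reads per library.

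The synthesis enzymes themselves were read far less often than their precursor supply. Fasn, fatty acid synthase (chr11:120805846-120824547, minus strand), had 108 reads in replicate 1 and 186 in replicate 2, or 271.9 and 261.2 CPM (mean 266.6 ± 7.563, SD, n = 2; rank 673). Acaca, the cytosolic acetyl-CoA carboxylase (chr11:84129672-84401651, plus strand), had 16 reads in replicate 1 and 20 in replicate 2, or 40.28 and 28.09 CPM (mean 34.19 ± 8.624, SD, n = 2; rank 5062). Fasn and Acaca have the longest transcripts of the set, 10050 and 9513 bases, and most of their reads did not reach the start of the transcript.

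Of the elongases, Elovl5, which lengthens polyunsaturated acids (chr9:77917364-77984519, plus strand), had 265 reads in replicate 1 and 325 in replicate 2. Its level was 667.2 CPM in replicate 1 and 456.4 CPM in replicate 2 (mean 561.8 ± 149.0, SD, n = 2; rank 222). Elovl6, which lengthens palmitate to stearate (chr3:129532355-129638495, plus strand), had 13 reads in replicate 1 and 18 in replicate 2, or 32.73 and 25.28 CPM (mean 29.01 ± 5.269, SD, n = 2; rank 5564). Counting reads of all models, Elovl6 is thus the least read member, with Elovl5 above it in both libraries. Elovl6 reads were split over Elovl6-201, with 6 reads in replicate 1 and 3 in replicate 2, and Elovl6-205, with 3 in replicate 1 and 9 in replicate 2. Both have a coding length of 801 bases and differ by an intron before the coding sequence and by their 3' ends, with lengths of 5951 bases for Elovl6-201 and 2610 for Elovl6-205, and the reads are too few for the test of transcript use.

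Of the stearoyl-CoA desaturases, which place the first double bond in saturated chains, both adrenal genes lie on chromosome 19. Scd2 (chr19:44293674-44306864, plus strand) had 156 reads in replicate 1 and 168 in replicate 2, or 392.8 and 235.9 CPM (mean 314.4 ± 110.9, SD, n = 2; rank 530). Scd1 (chr19:44394455-44407879, minus strand) had 141 reads in replicate 1 and 115 in replicate 2, or 355.0 and 161.5 CPM (mean 258.3 ± 136.8, SD, n = 2; rank 702). Scd2 was above Scd1 in each library, while the libraries of the 2 genes overlap. By ratio, Scd1 is the member whose libraries lie farthest apart. The paralogs Scd3 and Scd4 had 0 reads in both libraries, which allows up to 7.553 CPM in replicate 1 and 4.213 CPM in replicate 2 at 3 reads each.

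The front-end desaturases were the highest and the fourth highest of the members. Fads2, which adds the first of the extra double bonds to dietary polyunsaturated acids (chr19:10062765-10101746, minus strand), had 1614 reads in replicate 1 and 2126 in replicate 2. Its level was 4064 CPM in replicate 1 and 2986 CPM in replicate 2 (mean 3525 ± 762.2, SD, n = 2), rank 12 of all genes. Fads1, which acts after elongation in the same pathway (chr19:10182888-10196877, plus strand), had 316 reads in replicate 1 and 354 in replicate 2, or 795.6 and 497.2 CPM (mean 646.4 ± 211.0, SD, n = 2; rank 176). Fads2 was above Fads1 in both libraries, although the genes are neighbours on chromosome 19.

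In the order of levels, from Fads2 through Acly, Me1, Fads1, Elovl5, Scd2, Fasn, Scd1 and Acaca to Elovl6, 4 neighbouring pairs overlapped between libraries. They were Fads1 with Elovl5, Scd2 with Fasn, Fasn with Scd1, and Acaca with Elovl6. A long read is counted once whatever its length, so CPM was not divided by length, although reads of the longest transcripts were mostly incomplete. Per kb of the most read annotated transcript, or the longest coding one for Acaca, the order was Fads2, Acly, Me1, Elovl5, Fads1, Scd2, Scd1, Fasn, Elovl6 and Acaca. The 3 highest genes and Scd2 kept their places, and the changes are exchanges within overlapping pairs. The lower places also depend on the models counted. Without models of 1 exon, mean CPM was 281.4 for Fasn, 273.2 for Scd2 and 230.9 for Scd1. In that setting Elovl6, at 24.48 CPM, was above Acaca, at 13.43 CPM. On annotated transcripts alone Fasn, at 66.93 CPM, was below Scd1, at 248.0 CPM, and Acaca was at 0. Genes just outside the detection rule were the elongases Elovl2 with 1 read in replicate 1 and 0 in replicate 2, Elovl4 with 0 and 1, and Elovl7 with 0 and 2, in the same library order.

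**Figure D2:**
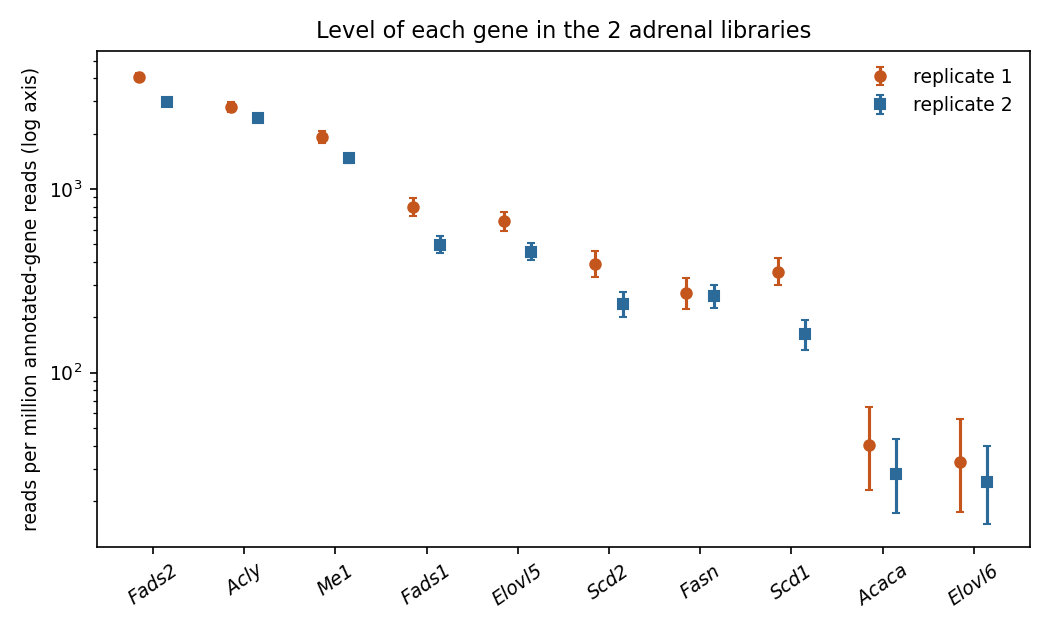
Level of each of the 10 genes in CPM (log axis), replicate 1 in circles and replicate 2 in squares, with 95% Poisson intervals of the counts. Fads2, Acly and Me1 lie above 1000 CPM in both libraries, while Acaca and Elovl6 lie between 25.28 and 40.28 CPM.

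Between the libraries, all 10 genes had a higher CPM in replicate 1, though Fasn turned to a log2 ratio of -0.0011 when models of 1 exon were left out, and 7 of the 10 passed the test, all 7 higher in replicate 1. The test was a two-sided exact binomial test per gene against the depth of the libraries, with Benjamini-Hochberg adjustment over 9271 genes with at least 10 reads in all. It compares 2 libraries and not 2 conditions. Over all genes tested, 199 passed (2.15%): 125 had a higher CPM in replicate 1 (1.35%) and 74 a higher one in replicate 2. Under TMM scaling, 203 passed, 148 with the higher value in replicate 1 and 55 with it in replicate 2, so the split between directions depends on scaling. Well-read genes pass more easily: of 811 genes with at least 256 reads in all, the number of Scd1, 68 were higher in replicate 1 (8.38%), and 8 of the 10 members are among these 811 genes. That count minimum was chosen after the values were seen.

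The median log2 ratio of replicate 1 over replicate 2 was 0.487 over the 10 genes, a 1.401-fold difference, beside -0.029 over all genes tested. Scd1 had the highest ratio, 1.135 on the log2 scale (95% interval 0.771 to 1.504), a 2.196-fold difference (adjusted p = 1.1e-07, exact binomial test). Scd2 and Fads1 were 1.665-fold and 1.601-fold higher in replicate 1, with adjusted p of 6.9e-04 and 4.8e-07 in the same exact test.

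The remaining genes that passed had smaller ratios. Elovl5 was 1.462-fold higher in replicate 1 (adjusted p = 7.4e-04), Fads2 1.361-fold higher (adjusted p = 2.7e-17) and Me1 1.312-fold higher (adjusted p = 3.6e-06), each by the exact binomial test. Acly was 1.145-fold higher (adjusted p = 0.028), the smallest difference that passed, and with no count minimum its adjusted p was 0.05003 and no longer passed. Fasn, Acaca and Elovl6 did not pass. Fasn had a ratio of 1.043 (log2 interval -0.298 to 0.408, adjusted p = 1.0, exact binomial test). Its interval excludes the point ratios of Scd1, Scd2, Fads1, Elovl5 and Fads2 but not those of Me1 and Acly, whose own counting error is left aside here. Acaca, with a log2 ratio of 0.529 (-0.525 to 1.542), and Elovl6, with 0.388 (-0.778 to 1.483), had too few reads to set their ratios apart from those of the others.

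**Figure D3:**
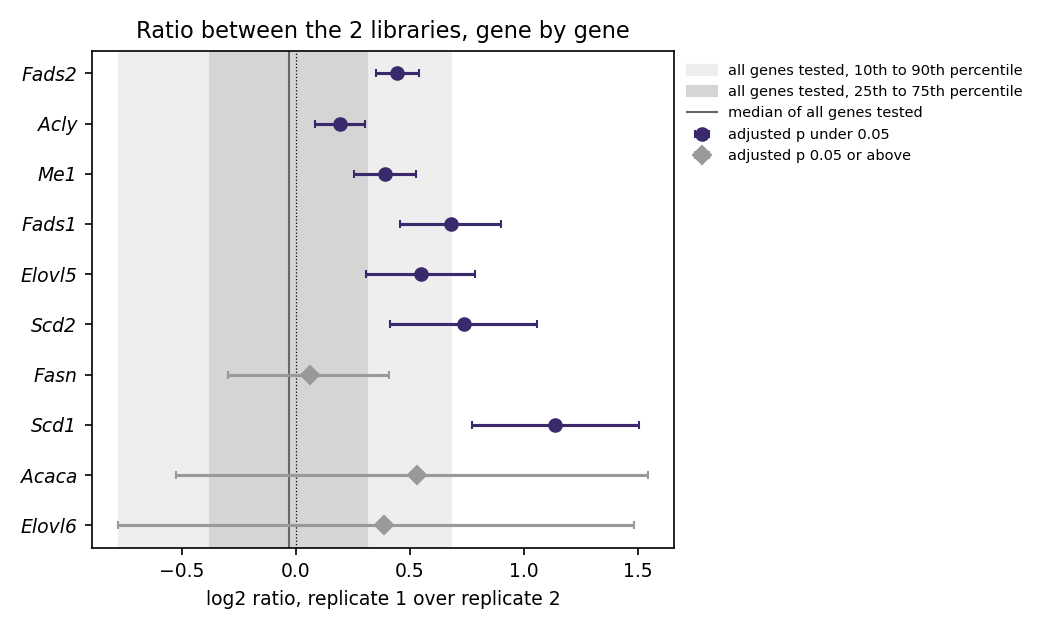
Log2 ratio of replicate 1 over replicate 2 for each gene with its 95% interval, dark circles where the adjusted p is under 0.05 and grey diamonds where it is not; grey bands give the 10th to 90th and 25th to 75th percentiles of all genes tested. All 10 points lie above 0 (Fasn not without models of 1 exon), between 0.061 for Fasn and 1.135 for Scd1, where the 25th and 75th percentiles of all genes are -0.38 and 0.31.

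Markers of other tissues differed between the libraries too. Of 11 adipocyte markers, 10 could be tested and 2 passed, both higher in replicate 1: Ucp1, the uncoupling protein of brown fat, with 209 reads in replicate 1 and 199 in replicate 2 (adjusted p = 7.4e-08), and Pnpla2, a triglyceride lipase, with 214 in replicate 1 and 260 in replicate 2 (adjusted p = 0.0028, both by the exact binomial test). The 11 markers summed to 4051 CPM in replicate 1 and 3338 CPM in replicate 2, led by Car3, and Lep had 0 reads in replicate 1 and 2 in replicate 2. Of the 10 adipocyte markers tested, 8 had a ratio above 0 (median log2 ratio 0.25), beside 47.92% of all genes tested. Cfd, the gene of adipsin, pointed the other way with 129 reads in replicate 1 and 318 in replicate 2. It did not pass (adjusted p = 0.081, exact binomial test). Retn, with 9 reads in replicate 1 and 17 in replicate 2, had a log2 ratio of -0.04. Of 11 liver markers, 7 could be tested and 6 passed, all higher in replicate 1: Alb, Apoa1, Apoa2, Ttr, Serpina1c and Ahsg. The sum over the list was 367.6 CPM in replicate 1 and 44.94 CPM in replicate 2. The albumin gene Alb was read 32 times in replicate 1 and 1 time in replicate 2, while Apoa1 had 23 reads in replicate 1 and 0 in replicate 2. Apoa2, Ttr, Serpina1a, Serpina1c, Fgb, Fga, Ahsg and Apoh were also at 0 in replicate 2. Cyp2e1, a liver cytochrome and the most read gene of the list, had 18 reads in replicate 1 and 31 in replicate 2 (adjusted p = 1.0, exact binomial test), nearly all the liver-list reads of replicate 2. Fat and liver both express several of the 10 genes, and the part of these tissues in the ratios was not tested. Of 7 cortex markers, 4 passed as higher in replicate 1 (Cyp11a1, Star, Cyp11b1 and Scarb1) and 1 as lower (Hsd3b1). Star, which brings cholesterol into the mitochondrion, was 1.306-fold higher in replicate 1 (adjusted p = 5.4e-39), and Cyp21a1, a steroid hydroxylase, had a ratio of 1.013 (adjusted p = 0.87, exact binomial test). Of 6 medulla markers, 1 passed as higher in replicate 1 (Th) and 2 as lower (Chga and Chgb). No macrophage, endothelial or Schwann cell marker passed: 4, 5 and 1 of them could be tested, and their sums were 90.64, 224.1 and 10.07 CPM in replicate 1 and 148.9, 244.4 and 19.66 CPM in replicate 2. Their most read genes were C1qa, with 10 reads in replicate 1 and 35 in replicate 2, Egfl7, with 47 and 104, and Mbp, with 3 and 7 in the same library order.

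Beside the 10, 11 lists of related genes were examined. They name 100 genes, of which 96 had reads and 85 could be tested; 3 passed as higher in replicate 1, 1 passed as lower, and 59 had a ratio above 0. Over all genes tested, 1.35% were called higher in replicate 1 and 47.92% had a ratio above 0. Of the 9 partners of fatty acid synthesis, 8 were tested and none passed, with a median log2 ratio of 0.29. Thrsp, a lipogenic protein of liver and fat, led them with 444 reads in replicate 1 and 694 in replicate 2 (1118 and 974.7 CPM). Slc25a1, the citrate carrier of the mitochondrion, had 169 in replicate 1 and 288 in replicate 2, and Mid1ip1, a regulator of acetyl-CoA carboxylase, 78 in replicate 1 and 147 in replicate 2. Acacb, the mitochondrial paralog of Acaca, had 15 reads in replicate 1 and 12 in replicate 2, so both carboxylase genes were read rarely.

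The other enzymes of elongation and desaturation did not differ by the test. Of 9 other elongases and desaturases, 7 had reads, 4 were tested and none passed (median log2 ratio 0.35); Elovl1, of very long chains, led with 63 reads in replicate 1 and 106 in replicate 2. Fads6 had 13 in replicate 1 and 9 in replicate 2, and Fads3 2 in replicate 1 and 17 in replicate 2. The 4 tested enzymes of the elongation cycle other than the elongases had a median log2 ratio of -0.07. Tecr, the last reductase of the cycle, had 302 reads in replicate 1 and 559 in replicate 2, Hacd3, a dehydratase, 130 in replicate 1 and 261 in replicate 2, and Hsd17b12, the ketoacyl reductase, 40 in replicate 1 and 72 in replicate 2. Tecr averaged 772.7 ± 17.47 CPM (SD, n = 2), and its libraries overlap with those of Fads1.

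Of 6 genes listed for electron supply to the desaturases, 5 were tested and none passed (median log2 ratio 0.10), and Cyb5r2 had 0 reads in both libraries. Cyb5r3, a cytochrome b5 reductase, had 340 reads in replicate 1 and 529 in replicate 2, Cyb5b, the mitochondrial cytochrome b5, 226 in replicate 1 and 411 in replicate 2, and Cyb5a, the microsomal one, 137 in replicate 1 and 319 in replicate 2. Cyb5r1 had 46 in replicate 1 and 60 in replicate 2, and Cyb5r4 50 in replicate 1 and 84 in replicate 2. None of the 9 genes of the list on NADPH supply and the pentose phosphate route passed (median -0.05). Of the enzymes that form NADPH, Idh1, the cytosolic isocitrate dehydrogenase, averaged 873.8 ± 124.8 CPM, Pgd 380.6 ± 27.85 CPM and G6pdx 73.70 ± 16.84 CPM (SD, n = 2), each below Me1. Taldo1 and Tkt, of the arm of the route that forms no NADPH, averaged 1080 ± 25.29 and 949.0 ± 25.24 CPM (SD, n = 2).

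Among 16 regulators of lipid synthesis, 15 were tested and 1 passed. Usf1, an E-box factor, had 5 reads in replicate 1 and 41 in replicate 2, the opposite direction to the 7 members (adjusted p = 0.013, exact binomial test). Srebf1 encodes the sterol-regulated factor that drives lipogenic genes. It was read 48 times in replicate 1 and 108 times in replicate 2, and its log2 ratio of -0.32 did not pass (adjusted p = 0.72, exact binomial test). The most read regulators were Insig1 with 169 in replicate 1 and 258 in replicate 2, Nr1h2 with 67 and 153, and Scap with 61 and 115 in the same library order. The median over the 15 was 0.11.

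Genes that use fatty acids gave 3 calls. Of 13 acylation genes, Agpat2, an acyltransferase of phosphatidic acid synthesis, passed with 324 reads in replicate 1 and 455 in replicate 2 (adjusted p = 0.043; median of the list 0.21). Dgat2, which makes triglyceride, led that list with 696 in replicate 1 and 1095 in replicate 2, followed by Agpat2 and by Agpat3 with 209 in replicate 1 and 350 in replicate 2. Of 13 oxidation genes, Hadhb, of the mitochondrial trifunctional protein, passed with 360 reads in replicate 1 and 511 in replicate 2 (adjusted p = 0.040), and 12 of the 13 had a ratio above 0 (median 0.33). Acadm, a dehydrogenase of medium chains, had 324 in replicate 1 and 462 in replicate 2, and Hadh 243 in replicate 1 and 460 in replicate 2. Of 8 uptake genes, Lpl, lipoprotein lipase, passed with 182 reads in replicate 1 and 231 in replicate 2 (adjusted p = 0.033, all by the exact binomial test; median 0.17). Fabp4 and Slc27a1 were the other most read uptake genes, at 433.8 ± 59.41 and 223.4 ± 8.083 CPM (SD, n = 2). The 3 called genes are higher in replicate 1.

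The 4 tested acyl-CoA synthetases did not pass (median 0.37), with Acsl4, which prefers arachidonic acid, at 88 reads in replicate 1 and 124 in replicate 2, Acsl1 at 58 and 80, and Acsl5 at 53 and 74. The 6 genes listed for the release of arachidonic acid and its signalling products were nearly unread, and other genes of these routes were not listed. Ptges had 3 reads in replicate 1 and 14 in replicate 2, Ptgs1 had 4 and 6, and Pla2g4a had 1 and 2, while Ptgs2 had 0 in both. Of these 6 genes 2 were tested and none passed (median -0.45). High reads of Fads2 and Fads1 thus stood beside few reads of these 6 listed genes in the same libraries.

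Most reads of the 10 genes matched an annotated transcript along every intron. The share was 82.52% in replicate 1 and 79.67% in replicate 2. Reads on models that lack the start of the transcript (5' incomplete) made up 7.617% in replicate 1 and 9.747% in replicate 2, and reads on models of 1 exon 6.351% and 6.777%. Of the 1-exon reads, 98.60% in replicate 1 and 98.06% in replicate 2 touched the last exon of the gene. Models with a splice site outside the annotation held 2.598% in replicate 1 and 2.642% in replicate 2.

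For Fads2, Me1 and Acly, most reads matched an annotated transcript along every intron. Annotated transcripts held 87.98% of Fads2 reads in replicate 1 and 85.23% in replicate 2, 87.96% and 87.93% of Me1 reads, and 83.42% and 82.28% of Acly reads in the same order of libraries. The median over all 3926 genes with at least 20 reads in each library was 84.49%. Fads2-201, Me1-201, Scd1-201, Scd2-201, Fads1-201 and Elovl5-201 each held nearly all or all annotated reads of their gene.

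Fasn and Acaca stood at the other end. Fasn-201, with 43 exons, had 20 reads in replicate 1 and 32 in replicate 2, and annotated transcripts held 20.37% of Fasn reads in replicate 1 (95% Wilson interval 13.85 to 28.92) and 18.28% in replicate 2 (13.39 to 24.46). In 42 other genes the longest coding transcript was 0.8 to 1.2 times as long as that of Fasn. Their median share was 71.61%, and 21.43% of them were below Fasn. That share counts reads on any annotated transcript, shorter ones included, so it is not the share for transcripts as long as Fasn-201. Acaca had 0 of 16 reads on an annotated transcript in replicate 1 and 0 of 20 in replicate 2, which allows shares of up to 19.36% and 16.11% by Wilson intervals. In place of those, 68.75% of Acaca reads in replicate 1 and 60.00% in replicate 2 were on 1-exon models. A further Fasn transcript, Fasn-203, of a retained intron, had 2 reads in each library.

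Along Fasn, the share of reads with a junction fell with distance from the 3' end. The junction nearest the 3' end was present in 90.74% of Fasn reads in replicate 1 and 94.62% in replicate 2, and the junction farthest from it in 18.52% and 18.28%. The fall was uneven. A junction 5419 bases from the 3' end was in 42.59% of reads in replicate 1 and 52.15% in replicate 2, and one 6093 bases from it in 29.63% and 31.72%. The share first fell under 50% at 4.63 kb from the 3' end in replicate 1 and at 5.81 kb in replicate 2. Acly kept 85.23% of its reads at its first junction in replicate 1 and 82.22% in replicate 2, Me1 90.45% and 89.85%, and Fads2 89.03% and 87.16%. Recurrent Fasn models that start partway had 21 exons, with 9 reads in replicate 1 and 21 in replicate 2, 22 exons, with 5 in replicate 1 and 15 in replicate 2, and 10 exons, with 10 in replicate 1 and 13 in replicate 2. Start and end positions are those of the deposited model and not of each read.

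**Figure D4:**
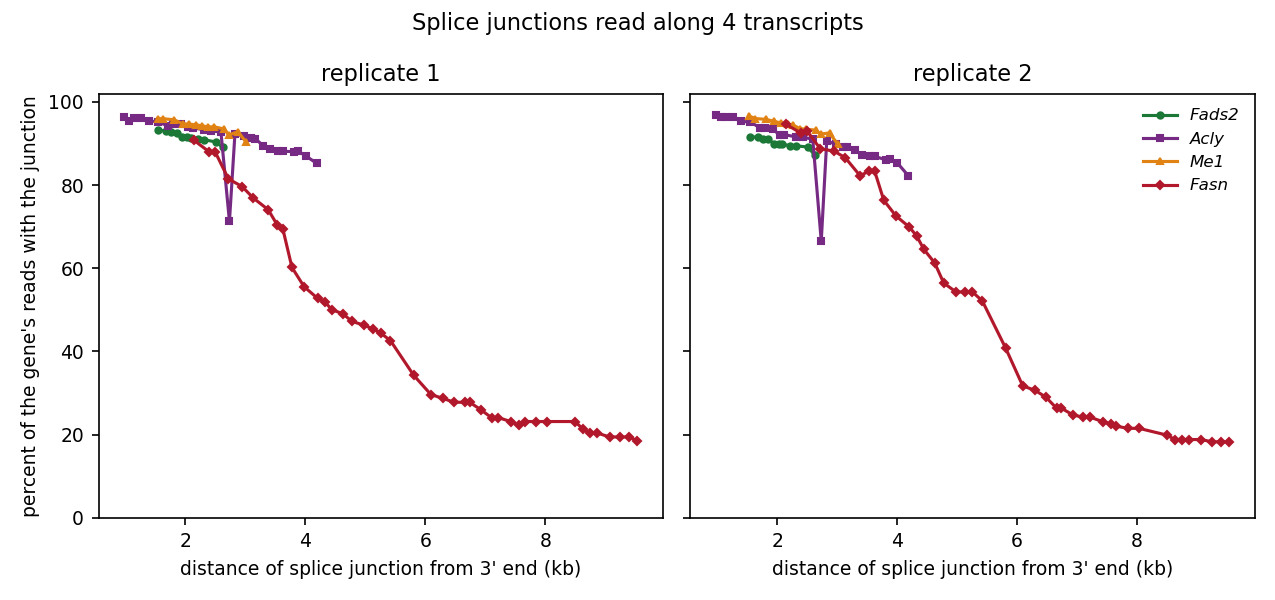
Share of a gene's reads, in percent, that hold each splice junction of the most read transcript of Fads2, Acly, Me1 and Fasn, against the junction's distance from the 3' end in kb, for replicate 1 at left and replicate 2 at right. The Fasn share falls to 18.52% in replicate 1 and 18.28% in replicate 2 at its farthest junction, while Acly, Me1 and Fads2 stay above 80% but for the 1 Acly junction that the 30-base exon replaces.

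Fads1 differed between the libraries in this respect. Annotated transcripts held 78.16% of its reads in replicate 1 (247 of 316) and 63.56% in replicate 2 (225 of 354), with an adjusted p of 0.035 by Fisher's exact test over 3926 genes, of which 9 passed (0.229%). It was the 1 member of 8 tested that passed. Without models of 1 exon the adjusted p was 0.38, and the call was lost; reads of 1 exon were 8.861% of Fads1 reads in replicate 1 and 16.38% in replicate 2. Scd1 went the same way, 78.01% in replicate 1 and 65.22% in replicate 2, and did not pass (adjusted p = 0.72). Elovl5 had 77.74% and 73.54%, Scd2 66.67% and 65.48%, and Elovl6 69.23% and 66.67% in replicates 1 and 2.

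**Figure D5:**
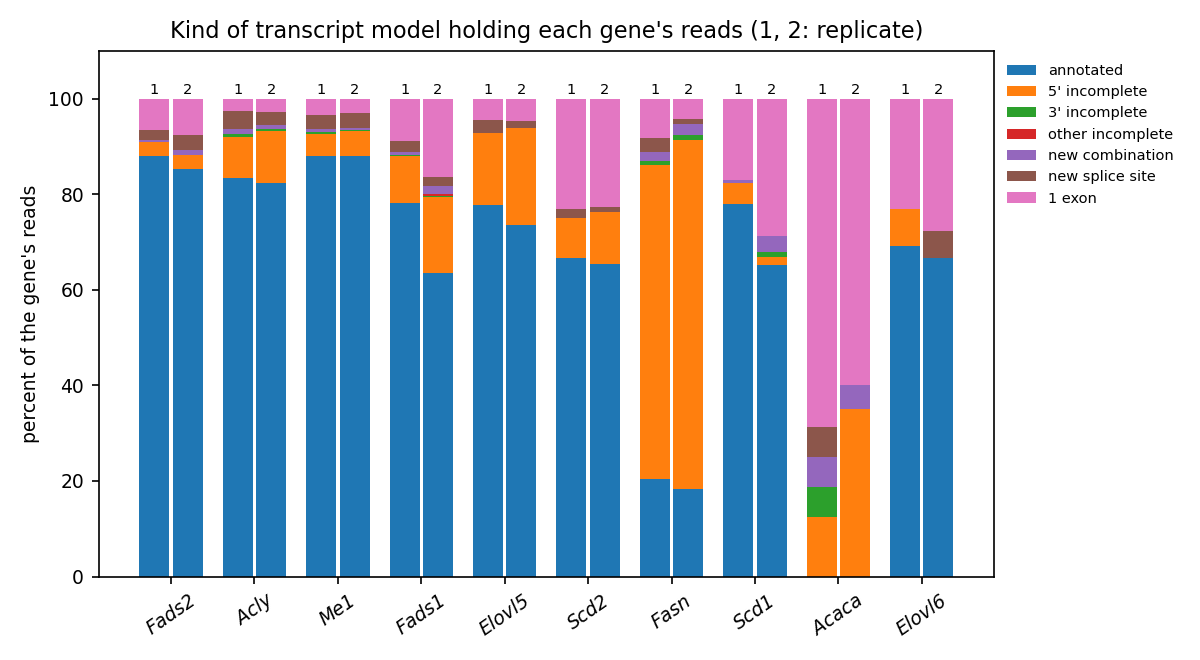
Percent of each gene's reads on annotated, incomplete, newly combined, newly spliced and 1-exon models, with the bar of replicate 1 left of that of replicate 2 for each gene. Annotated models hold over 60% of reads in 8 genes, 5' incomplete models most of Fasn, and 1-exon models most of Acaca.

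A few models with splice sites outside the annotation had at least 5 reads in each library. One Fads2 model, with 9 reads in replicate 1 and 19 in replicate 2, began with an exon of 110 bases at mm10 chr19:10121862-10121971, which is 20.23 kb upstream of the annotated start, and joined the second exon of Fads2-201. No annotated gene lies over that exon. The model held 0.5576% of Fads2 reads in replicate 1 and 0.8937% in replicate 2. An Acly model with 22 exons, 5 reads in replicate 1 and 6 in replicate 2, began with an exon at chr11:100516318-100516776, which runs from the last base of exon 7 into intron 7, and continued along the annotated junctions. Both are listed as models of their gene in each library separately.

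In the other pair of recurrent models the splice site moved by a few coding bases. A Fads2 model, 5 reads in replicate 1 and 6 in replicate 2, lacked 3 bases at the end of exon 7, which are codon 294 in whole. A Me1 model, 6 reads in replicate 1 and 5 in replicate 2, lacked 2 bases at the start of exon 4, from base 363 of the coding sequence, and so leaves the frame. The annotated transcripts are shown with 30 bases on either side, and capitals mark the bases that these models lack.
Fads2-201: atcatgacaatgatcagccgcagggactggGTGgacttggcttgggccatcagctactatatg
Me1-201: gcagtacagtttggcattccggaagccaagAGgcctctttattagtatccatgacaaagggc
The absent bases are at chr19:10070272-10070274 for Fads2 and chr9:86654717-86654718 for Me1, both on the minus strand in mm10.

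Beyond these, many intron chains outside the annotation were seen in 1 library only. Many such models held few reads: in replicate 1, 28 Acly models with a new splice site held 40 reads together. The share of such chains over all genes was not counted, so the counts below do not show a difference between the libraries. Of 118 distinct intron chains of Acly outside the annotation, 35 were seen in both libraries, as were 19 of 58 for Fads2, 20 of 49 for Fasn and 16 of 38 for Me1. For Fads1 it was 13 of 26, for Elovl5 6 of 16, for Scd2 4 of 9, for Scd1 2 of 5, for Acaca 1 of 11 and for Elovl6 0 of 2.

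Near-identical copies make some counts uncertain. Among GENCODE transcripts, Acaca has the pseudogene Gm5182 on chromosome 12 with 99.20% identity over 6118 bases, which had 2 reads in replicate 1 and 0 in replicate 2 beside 16 and 20 for Acaca. Me1 has Gm7049 (98.43% over 1716 bases), with 1 read in replicate 1 and 0 in replicate 2, and Gm48795 (98.71% over 1159 bases), with 0 in both, and Elovl6 has Gm11295 (97.39% over 805 bases), with 0 in both. Scd1 and Scd2 share 90.70% of 1064 aligned coding bases, with a transcript stretch of 95.51% identity over 623 bases, and Scd1 and the unread Scd3 match at 91.36% over 1053 bases. The coding sequences of Fads1 and Fads2 are less alike, at 69.36% of 1312 aligned bases, and those of Elovl5 and Elovl6 at 64.49% of 735.

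Promoters from RefSeq (build GRCm38.p6, 250 bases before to 50 after a start) matched 7 of the 10 genes, in 8 windows; Scd1, Scd2 and Fads1 had no entry. The letters of 3 motifs were searched on both strands. The sterol regulatory element TCACNCCAC was in the windows of 0 of the 7 genes and in 1.242% of 32851 promoters, and the E-box CACGTG was in that of Elovl5 and in 7.150% of all promoters. The CCAAT box was in those of 4 genes, Acly, Me1, Fasn and Elovl5, and in 37.41% of all promoters. Acly counts only through a match 37 bases after the start, not before it. Me1 counts only through its window at chr9:86687228-86687527. Its other window, at chr9:86695865-86696164, covers the start of the only annotated Me1 transcript with reads and held none of the 3 motifs. The Fads2 window, at chr19:10101454-10101753, is set on a start 243 bases from the nearest GENCODE start. Almost all of it lies downstream of the start of Fads2-201 at 10101746, so the sequence upstream of that start was hardly searched. The counts are of genes with a match in any window, whereas the percentages are of single promoters, so they are not like for like. The hits are matches of letters in a window and nothing more.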

How the data were processed

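Long-read RNA-seq libraries of total adrenal RNA were deposited as counts: per the file headers, the authors gave whole reads per transcript model for each library, listing models with at least 1 read, with model classes and names in the style of TALON. Build mm10 and GENCODE M21 are named per the labels and the deposited notes; the aligner, its version and the versions of other tools are not given in the sources used here. Each library was processed on its own. Control RNAs (2.069% of reads in replicate 1 and 1.859% in replicate 2) were left out of totals; annotated genes held 95.17% and 94.22% of mouse reads.

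Reads were summed per gene and divided by annotated-gene totals, so 1 read was 2.518 CPM in replicate 1 and 1.404 CPM in replicate 2, and a count of 0 allows 3 reads. With 1 group, edgeR's test could not be fitted; exact binomial and Fisher's exact tests (scipy 1.17.1) over all genes with Benjamini-Hochberg adjustment at 0.05 were used, tested on simulated data. Ratios had 0.5 added to each count; their intervals are exact binomial. The minimum was 10 reads in all for ratios and 20 reads in each library for shares. TMM (edgeR 4.0.16) and DESeq2 1.42.0 size factors served as scaling alternatives. Transcripts were matched by intron chains from the deposited annotation; near copies were found with BLAST 2.17.0 (90% identity over 300 bases). Incomplete, newly combined and 1-exon models were kept in gene sums.

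The members and lists were chosen with earlier results of these data known. Named were all 10 genes, in each related list the genes that passed and the 3 most read, in marker lists those that passed or were most read, transcripts with at least 5% of annotated reads, and other models with at least 5 reads in each library. Acacb, Srebf1, Acly-207, Cyp21a1, Lep, Cfd, Retn, Cyb5r1, Cyb5r4, Pgd, G6pdx and genes at 0 were named after their values were seen.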

Additional observations from a re-analysis of the deposited data

Results flagged for a closer look

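Reads assigned to models on the strand opposite to a gene lie outside the gene counts, and no control sample sets their background. At 6 of the 10 loci they exceeded the 3 reads that a count of 0 allows. At Me1 there were 12 such reads in replicate 1 and 33 in replicate 2, none spliced, of which 1 model held 8 and 20. At Scd2 there were 7 in replicate 1 and 31 in replicate 2, or 4.487% and 18.45% as many as Scd2 reads, none spliced. The miRNA gene Mir5114, on the same strand as Scd2 and inside it, was listed with 3 reads in replicate 1 and 20 in replicate 2. The reads of Mir5114 are not in the counts or the ratio of Scd2. At Elovl5 there were 12 opposite-strand reads in replicate 1 and 6 in replicate 2, and at Acaca 6 in each, on as many models of 1 read. In replicate 2, Fads2 had 9 and Fads1 had 6, of which 5 were spliced. Over the 10 loci the sum was 42 reads in replicate 1 and 96 in replicate 2, beside a depth 1.807 times as high in replicate 2. The source of these reads was not tested.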

How the results depend on the processing

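No paired analysis was possible because the labels give 1 group of 2 libraries. TMM and DESeq2 scaling moved every log2 ratio up by 0.05, and 7 of the 10 genes passed under both, as they did on annotated transcripts alone, where 9 could be tested, and without models of 1 exon; with no count minimum 6 passed, Acly being lost at an adjusted p of 0.05003. The number of all genes that passed was 152 to 203 over those settings. Without models of 1 exon the log2 ratio of Fasn was -0.0011, the opposite sign to its reported 0.061, neither past the threshold, and the number of genes with a different annotated share was 4 in place of 9. The cause was not tested. On annotated transcripts alone Fasn was at 66.9 CPM and Acaca at 0. Leaving out a library, the share of the 10 genes ranged from 0.8559% to 1.134% and the share of Acly with the exon from 22.05% to 26.07%. With 2 libraries, leaving out either moves a mean by less than its SD by construction, so those ranges do not test stability. The ratio intervals of Fasn, Acaca and Elovl6 span 0, and those of Acaca and Elovl6 are the widest.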
